A study of Mus musculus with 2 samples.

Results

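The antigen receptor loci are the genomic regions from which lymphocytes assemble their antigen receptor genes: Igh (immunoglobulin heavy chain), Igk and Igl (kappa and lambda light chains), Tcrb (T cell receptor beta chain) and Tcra/Tcrd (T cell receptor alpha and delta chains). CTCF peaks in these loci were taken from lists of mouse embryonic stem (ES) cells and mouse embryonic fibroblasts (MEFs), neither of which is a lymphoid cell. A peak belonged to a locus when its midpoint lay within fixed limits on the mm9 build: chromosome 12 from 114400001 to 117250000 for Igh, chromosome 6 from 67450001 to 70750000 for Igk, chromosome 16 from 19000001 to 19300000 for Igl, chromosome 6 from 40800001 to 41600000 for Tcrb and chromosome 14 from 52900001 to 54950000 for Tcra/Tcrd. The limits use position alone and no measured value, and 226 of 98160 peaks met them, 121 of 44424 in the ES list and 105 of 53736 in the MEF list. Each cell type had 1 library, made by chromatin immunoprecipitation with the same CTCF antibody. By the labels, the genetic background was Bl3.10 and C57BL in ES cells but C57BL6 in MEFs. Effects of cell type, of genetic background and of the individual library therefore cannot be told apart. The labels name no treatment, and both cultures were grown in the same medium with fetal calf serum. Peak lists hold no expression values, so the labelled cell types were not checked against marker genes.

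In developing B and T cells the RAG recombinase joins variable (V), diversity (D) and joining (J) segments ahead of a constant (C) gene. The zinc-finger protein CTCF anchors chromatin loops together with cohesin, and in lymphocyte precursors such loops bring distant V segments near the D and J segments. Known CTCF elements of lymphoid cells lie beyond the Igh constant genes, between the V and D segments of Igh, and between the V and J segments of Igk. ES cells and MEFs do not rearrange these loci.

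A RefSeq gene table (assembly GRCm38.p6, used for names, numbers and order only) lists 183 V segments for Igh, 162 for Igk, 3 for Igl, 35 for Tcrb and 136 for Tcra/Tcrd, V pseudogenes included. In that table the constant genes lie at the low-coordinate end of Igh, from Igha to Ighm. They lie at the high-coordinate end of Igk (Igkc), Tcrb (Trbc1 and Trbc2) and Tcra/Tcrd (Trdc and Trac). The 250 kb at that edge of each locus is called the constant end below. Its gene content on mm9 was not mapped. In Igl the constant genes are interleaved with the V segments, so no constant end was set. No mm9 genome sequence was used here, so the sequence under the peaks and its motifs were not analysed.

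As a whole the 5 loci were sparser in CTCF peaks than the autosomes, and more so in MEFs. Over 9.3 Mb the ES list held 13.0 peaks per Mb (95% Poisson interval 10.8 to 15.5) against an autosomal mean of 17.6. The MEF list held 11.3 peaks per Mb (9.23 to 13.7) against 21.1. These are 0.739 times (0.613 to 0.883) and 0.534 times (0.437 to 0.647) the autosomal means. The MEF list was the longer one genome-wide, with 1.20 MEF peaks per ES peak on autosomes (95% Clopper-Pearson interval 1.18 to 1.22), whereas in these loci there were 0.868 MEF peaks per ES peak (0.662 to 1.14). All intervals cover counting error only, and with 1 library per cell type no test between cell types was possible.

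MEF densities were lowest in the immunoglobulin loci. Igh held 40 ES peaks and 26 MEF peaks over 2.85 Mb, or 14.0 per Mb (10.0 to 19.1) and 9.12 per Mb (5.96 to 13.4). Against the autosomal means these were 0.797 times (0.569 to 1.09) in ES cells and 0.432 times (0.282 to 0.633) in MEFs. Igk held 40 ES peaks and 31 MEF peaks over 3.3 Mb. Its densities were 12.1 per Mb in ES cells, 0.688 times the autosomal mean (0.492 to 0.937), and 9.39 per Mb in MEFs, 0.445 times (0.302 to 0.631). The MEF to ES ratio was 0.650 in Igh (0.381 to 1.09), an interval that lies below the autosomal 1.20, and 0.775 in Igk (0.469 to 1.27), an interval that includes it. Of 832 autosomal windows of the length of Igh with at least 10 peaks in both lists together, 1 had a MEF share of peaks as low as the 39.4% of Igh. For Igk 15 of 726 such windows reached its 43.7% or less. None of these windows overlapped the locus itself.

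The ES deficit depends on the yardstick. Whole 250 kb autosomal bins held 4.51 ES and 5.41 MEF peaks on average, but their medians were 3 and 4. Against these medians the ES density was 1.17 times in Igh and 1.01 times in Igk, while the MEF density was 0.570 times and 0.587 times. In the higher-scoring 50% of the ES list, Igh lay above the autosomal mean, at 1.23 times. Of autosomal windows as long as Igh, 48.7% held as few or fewer ES peaks and 12.3% as few or fewer MEF peaks. For windows as long as Igk the shares were 43.0% and 15.0%.

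The T cell receptor loci held slightly more MEF than ES peaks. Tcrb held 13 ES peaks and 14 MEF peaks over 0.8 Mb, at 0.923 times (0.491 to 1.58) and 0.828 times (0.453 to 1.39) the autosomal means. Tcra/Tcrd held 28 ES peaks and 34 MEF peaks over 2.05 Mb, at 0.776 times (0.515 to 1.12) and 0.785 times (0.544 to 1.10). All 4 intervals include 1, and against the median bin the values lay above 1, at 1.35 (ES) and 1.09 (MEF) times in Tcrb and 1.14 and 1.04 times in Tcra/Tcrd. The MEF to ES ratio was 1.08 in Tcrb (0.470 to 2.49) and 1.21 in Tcra/Tcrd (0.715 to 2.08), so both intervals include the autosomal ratio. The Tcrb interval also includes the ratios of Igh and Igk, and that of Tcra/Tcrd the ratio of Igk but not that of Igh. The difference between loci was not tested. V segments outnumbered peaks in every locus with peaks, from 2.50 V segments per MEF peak in Tcrb to 7.04 per MEF peak in Igh.

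Igl held no peak in either list. At the autosomal means its 0.3 Mb would hold 5.28 ES peaks and 6.34 MEF peaks. A count of 0 allows a density of up to 10.0 peaks per Mb, taking 3 counts as the limit. This limit is narrower than the Poisson intervals used for the other loci. By it, Igl was at least 1.76-fold lower than the autosomes in ES cells and at least 2.11-fold lower in MEFs. Windows of this length with no peak in either list were uncommon but not rare, 218 of 8033 (2.71%). Those with no ES peak numbered 908 (11.3%) and those with no MEF peak 468 (5.83%). The empty stretch was wider than the locus. The nearest ES peaks were at 18976788 to 18977186, 23.0 kb below the locus, and at 19426694 to 19427092, 127 kb above it. The nearest MEF peaks were at 18917240 to 18917638 and 19410560 to 19410958. The gap between starts was thus 450 kb in ES cells and 493 kb in MEFs, lengths reached by 1.31% of autosomal ES gaps and 0.354% of MEF gaps. These are shares of the number of gaps, not of the sequence that the gaps cover. The side towards lower coordinates was peak-rich, with 42 ES and 50 MEF peaks in the adjoining 1 Mb. Above the locus the adjoining 1 Mb held 12 peaks in each list.

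**Figure D1:**
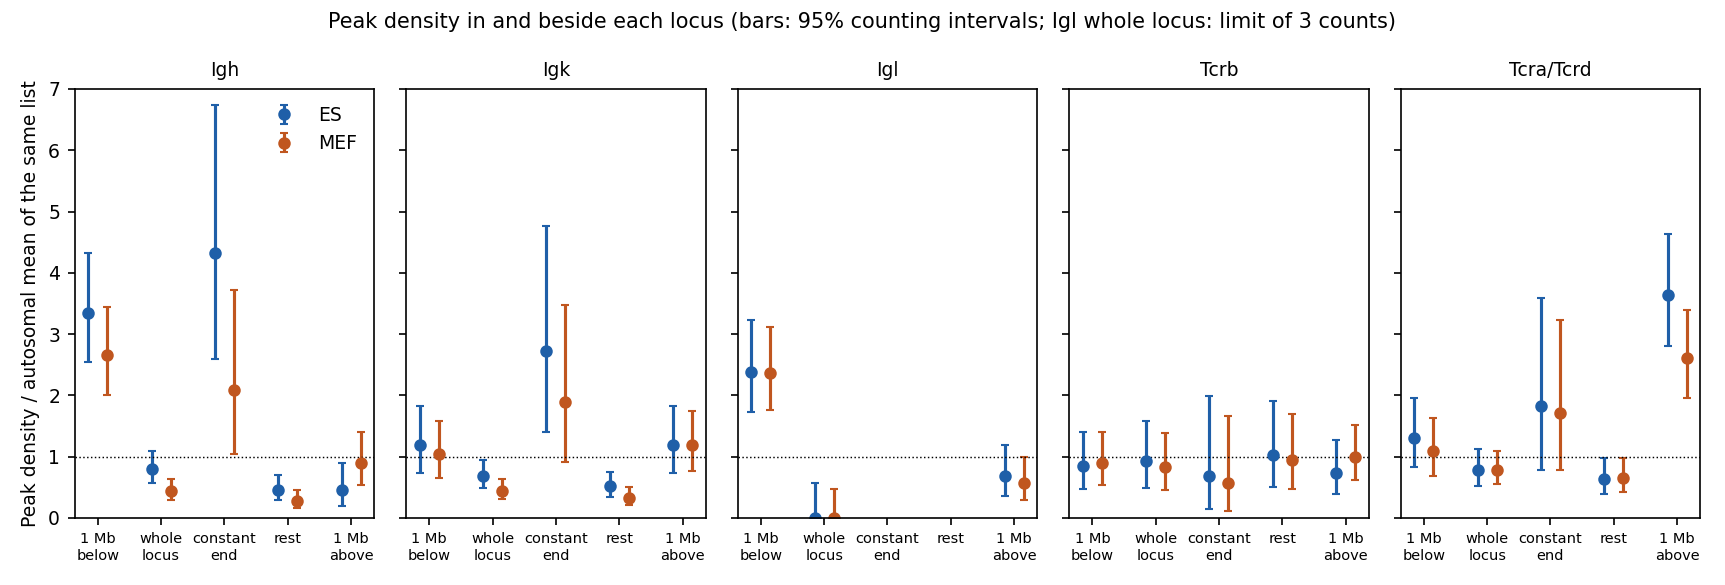
Peak density divided by the autosomal mean of the same list (vertical axis, 1 marks the mean), for each locus, its 250 kb constant end, the rest of the locus and the 1 Mb on either side; points are ES (blue) and MEF (orange) values and bars are 95% Poisson intervals, with the limit of 3 counts for the empty Igl. The constant ends of Igh and Igk lie above 1 in both lists, at 4.32 and 2.73 times in ES cells, while the rest of both loci lies below 1.

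Within Igh, peaks were concentrated at the constant end. This 250 kb, which is also the first bin of the locus, held 19 of the 40 ES peaks and 11 of the 26 MEF peaks. The density there was 4.32 times the autosomal mean in ES cells (2.60 to 6.74) and 2.08 times in MEFs (1.04 to 3.73). The other 2.6 Mb, where most V segments lie by the order of the gene table, held 21 ES peaks (0.459 times, 0.284 to 0.701) and 15 MEF peaks (0.273 times, 0.153 to 0.450). Outside the locus, the 1 Mb below Igh, beyond the constant genes, held 59 ES and 56 MEF peaks. The 1 Mb above Igh held 8 ES peaks, a density like that of the rest of the locus, and 19 MEF peaks, a higher density (0.899 times the autosomal mean, 0.541 to 1.40). Taking 500 kb as the constant end lowered the ES value to 2.50 times and the MEF value to 1.33 times. Of all whole autosomal 250 kb bins, 1.76% held 19 or more ES peaks and 13.1% held 11 or more MEF peaks.

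Density at the constant end was also above that in the rest in Igk and, with intervals that overlap, in Tcra/Tcrd. The constant end of Igk held 12 ES peaks (2.73 times the autosomal mean, 1.41 to 4.76) and 10 MEF peaks (1.89 times, 0.908 to 3.48). The rest of Igk held 28 ES peaks (0.521 times, 0.346 to 0.753) and 21 MEF peaks (0.326 times, 0.202 to 0.498). Unlike Igh, Igk had flanks near the autosomal mean, with 21 ES peaks on either side and 22 and 25 MEF peaks. The constant end of Tcra/Tcrd held 8 ES and 9 MEF peaks, at 1.82 times (0.785 to 3.58) and 1.70 times (0.779 to 3.23), and the rest was at 0.631 times (0.385 to 0.974) and 0.657 times (0.425 to 0.970). With 500 kb as the constant end the values were smaller, 1.82 (ES) and 1.04 (MEF) times in Igk and 1.36 and 1.14 times in Tcra/Tcrd. Above that constant end the adjoining 1 Mb was dense, with 64 ES and 55 MEF peaks.

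Tcrb showed no such concentration at its constant end, and the intervals of both its parts overlap and include 1. Its constant end held 3 peaks in each list, at 0.681 times (0.141 to 1.99) in ES cells and 0.568 times (0.117 to 1.66) in MEFs, and none of them was shared. The rest of Tcrb held 10 ES and 11 MEF peaks, at 1.03 times (0.495 to 1.90) and 0.947 times (0.473 to 1.69). In the gene table trypsinogen genes such as Try4, Try5 and Prss2, which encode digestive enzymes, lie among the segments of this locus.

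**Figure D2:**
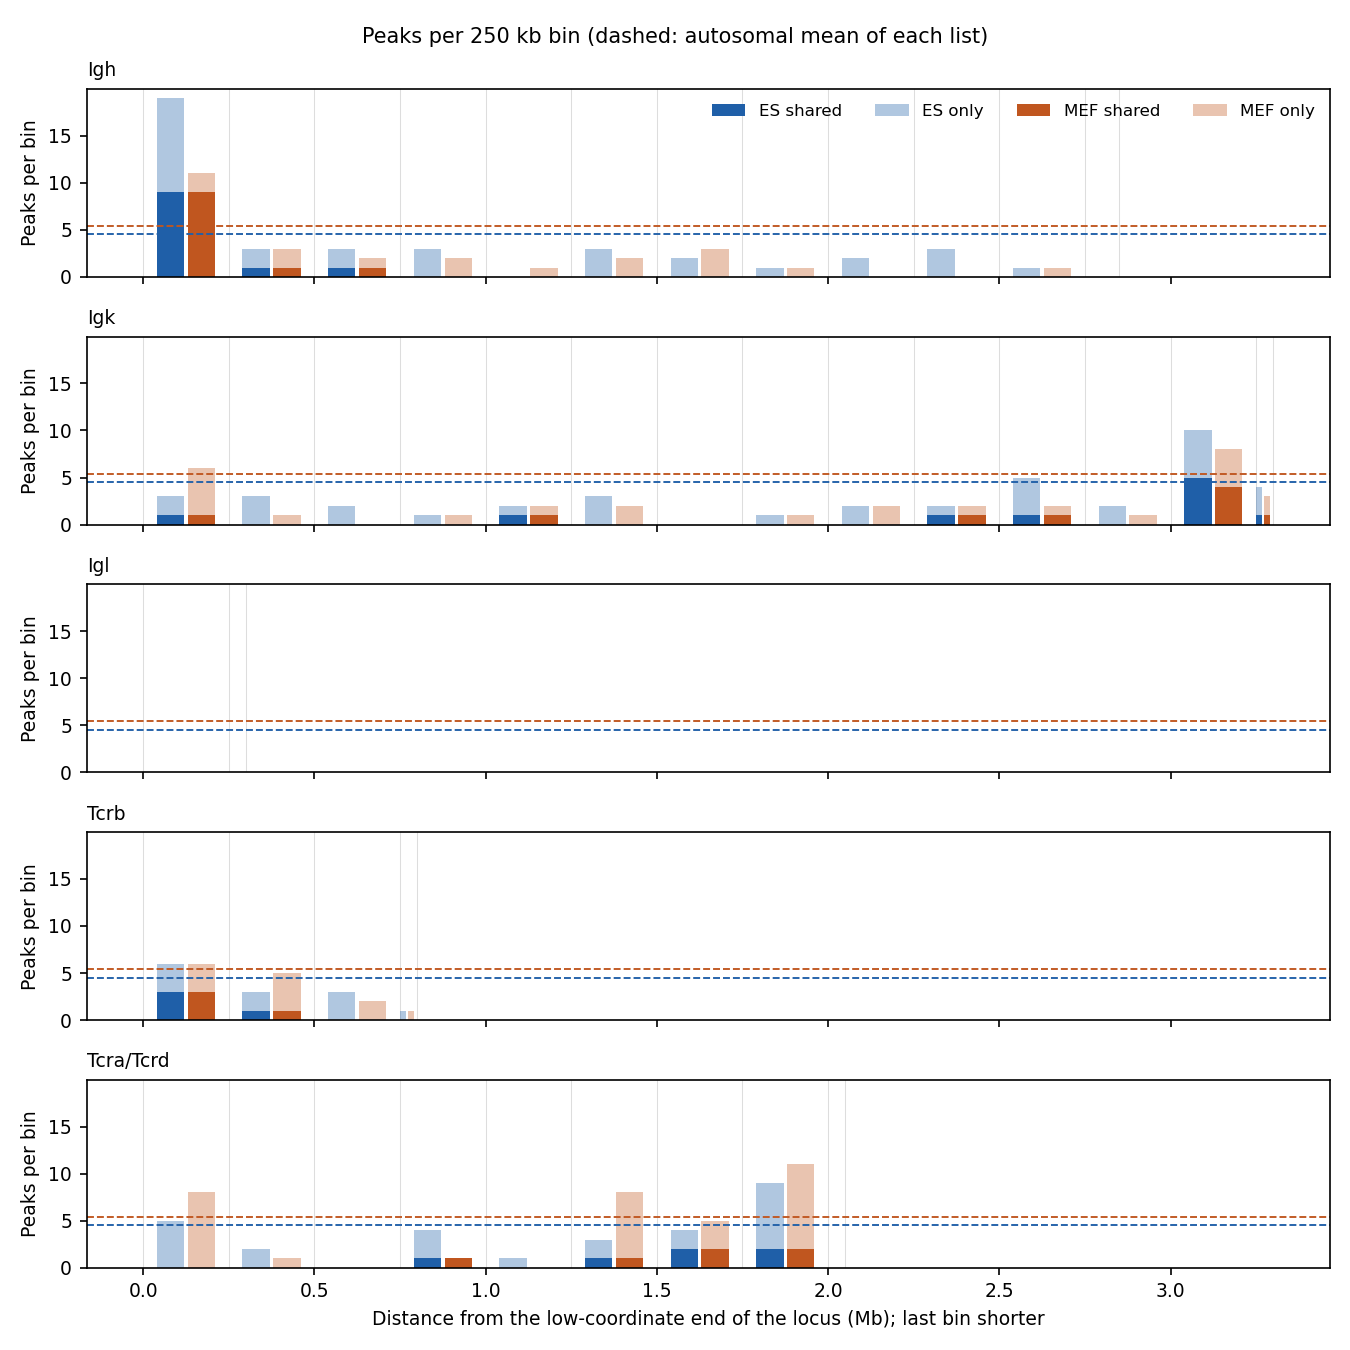
Number of ES (blue) and MEF (orange) peaks in 250 kb bins along each locus, with the shared part dark and the part called in 1 list only pale; dashed lines give the autosomal mean per bin, 4.51 for ES and 5.41 for MEF, and the last bin of each locus is shorter. The first bin of Igh (19 ES, 11 MEF), the last whole bin of Igk (10 and 8) and that of Tcra/Tcrd (9 and 11) stand above both lines, as do the first bins of Tcrb (6 and 6) and Tcra/Tcrd (5 and 8), away from the constant end.

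Along Igh the counts per bin were low and nearly flat after the first bin. From the second to the fourth bin (114650001 to 115400000) each held 3 ES peaks, and the MEF counts were 3, 2 and 2. The fifth bin, 115400001 to 115650000, held no ES peak and 1 MEF peak. The sixth to eighth bins held 3, 2 and 1 ES peaks and 2, 3 and 1 MEF peaks. The next pair of bins, 116400001 to 116900000, held 2 and 3 ES peaks and no MEF peak. After that the bin from 116900001 to 117150000 held 1 peak of each list, and the last 100 kb held none.

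Igk had a similar plateau of low counts between its edges. Its first bin, 67450001 to 67700000, held 3 ES and 6 MEF peaks. From there to 69950000 the 9 bins held 0 to 3 ES peaks and 0 to 2 MEF peaks each. The bin from 67950001 to 68200000 had 2 ES peaks and no MEF peak, and the bin from 68950001 to 69200000 had none in either list. Counts then rose towards the constant end, with 5 ES and 2 MEF peaks from 69950001 to 70200000, 2 and 1 in the next bin, and 10 and 8 from 70450001 to 70700000. The last 50 kb held 4 ES and 3 MEF peaks.

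In Tcra/Tcrd the list with more peaks changed along the locus. The first bin, 52900001 to 53150000, held 5 ES and 8 MEF peaks, none of them shared. The bin from 53400001 to 53650000 was empty in both lists. The next 500 kb held 5 ES peaks but 1 MEF peak, and the bin from 54150001 to 54400000 held 3 ES peaks but 8 MEF peaks. The bin with most peaks, 54650001 to 54900000, held 9 ES and 11 MEF peaks. In Tcrb the first bin held 6 peaks of each list, the second 3 ES and 5 MEF peaks, the third 3 and 2, and the last 50 kb 1 of each.

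Of the 36 whole bins in the 5 loci, 4 had no ES peak, 7 had no MEF peak and 3 had neither. On autosomes 14.4% of whole bins had no ES peak, 7.65% no MEF peak and 3.54% neither. The share of bins without an ES peak was thus near the background, 11.1% (95% Wilson interval 4.41 to 25.3), whereas that without a MEF peak was 19.4% (9.75 to 35.0). With bins counted from the first base of the chromosome these shares were 5.88% and 29.4%. ES peaks outnumbered MEF peaks in 16 whole bins, MEF peaks outnumbered ES peaks in 8, and 12 were equal. In Igh and Igk together the corresponding numbers were 12, 3 and 9 of 24. The autosomal shares of such bins are not given here, so these counts have no background to be read against.

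Gaps over 100 kb made up a larger share than on autosomes in Igh, Igk and Tcrb, and among ES gaps in Tcra/Tcrd. In Igh the median distance between starts of neighbouring ES peaks was 18.2 kb (quartiles 1.87 and 103 kb), and 15 of 39 gaps were under 5 kb while 11 were over 100 kb. Autosomal ES gaps had a median of 22.0 kb (quartiles 6.83 and 58.7 kb), and 14.4% were over 100 kb. In MEFs the median gap in Igh was 29.5 kb (6.16 and 145 kb), and 9 of 25 gaps (36.0%) were over 100 kb, against 11.7% of autosomal MEF gaps. Igk had the largest share of long gaps, 16 of 39 (41.0%) in ES cells and 12 of 30 (40.0%) in MEFs, with medians of 32.4 and 36.6 kb. In Tcrb the medians were 43.9 kb (ES) and 45.9 kb (MEF), and in Tcra/Tcrd 36.6 and 19.1 kb.

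The longest gap was longer in MEFs than in ES cells in Igh, Igk and Tcra/Tcrd, but not in Tcrb. In Igh the MEF list had no peak between 116356280 and 117124122, a distance of 768 kb between starts that 52 of 52201 autosomal MEF gaps reached. The longest ES gap in Igh was 320 kb, from 115373500 to 115693561. In Igk the longest gaps overlapped, from 68882198 to 69212211 in ES cells (330 kb) and from 68754816 to 69298250 in MEFs (544 kb). The latter length was reached by 0.261% of autosomal MEF gaps. Each of these gaps was picked as the longest of its locus, whereas the autosomal figures count every gap. They therefore do not give the rarity of a longest gap. In Tcra/Tcrd the longest ES gap, from 53287194 to 53659393 (373 kb), ended just before the start of the longest MEF gap, from 53662071 to 54166963 (505 kb). In Tcrb they were 160 kb (41313998 to 41473795) and 140 kb (40845007 to 40984214).

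**Figure D3:**
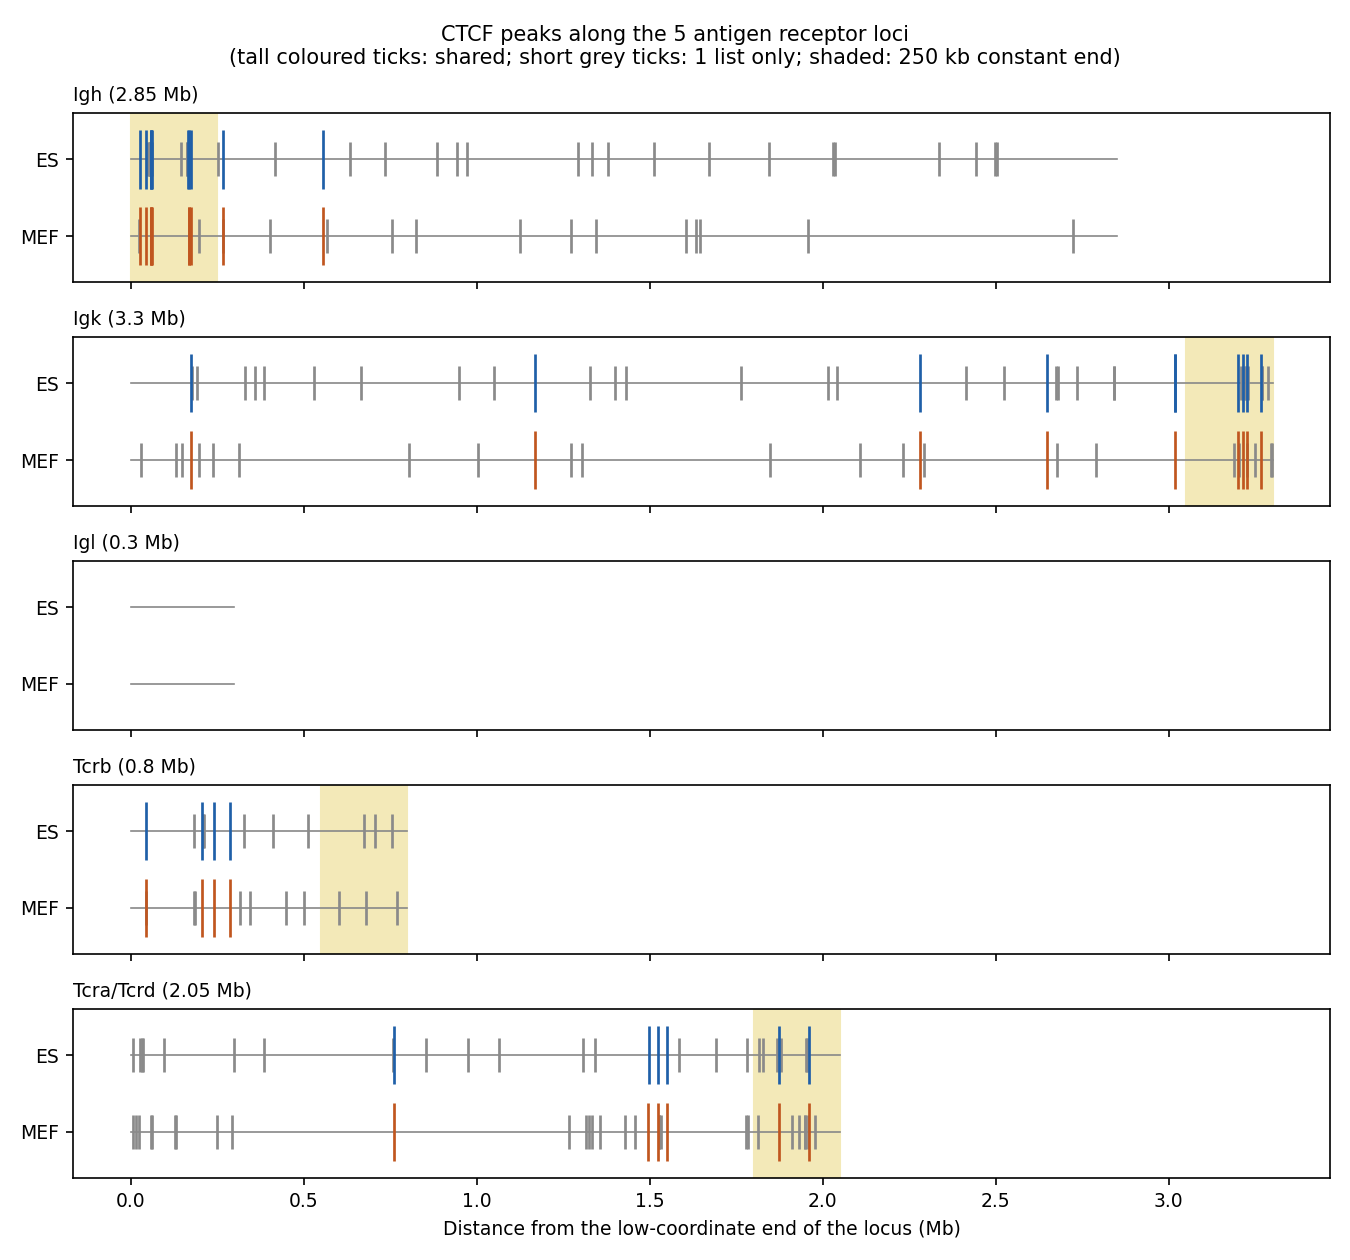
Position of every peak along the 5 loci, as the distance from the low-coordinate end in Mb (horizontal axis), with 1 line per list; tall coloured ticks are peaks shared between ES and MEF, short grey ticks peaks of 1 list only, and shading marks the 250 kb constant end. Shared peaks crowd at the left of Igh and at the right of Igk, lie in the left part of Tcrb, and are absent from Igl.

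Peaks were shared about as often in these loci as elsewhere in the ES list. Overlap of at least 1 bp with a MEF peak was found for 31 of the 121 ES peaks (25.6%, 95% Wilson interval 18.7 to 34.1), against 26.2% of all autosomal ES peaks. From the MEF side 30 of 105 peaks were shared (28.6%, 20.8 to 37.8), against 21.9%. That left 90 ES-only peaks (background 73.8%) and 75 MEF-only peaks (background 78.1%). By locus, the shared, ES-only and MEF-only counts were 11, 29 and 15 for Igh, where each list had 11 shared peaks. For Igk 10 ES and 9 MEF peaks were shared, with 30 ES-only and 22 MEF-only peaks. For Tcrb they were 4, 9 and 10, and for Tcra/Tcrd 6, 22 and 28. In the Igh locus 42.3% of MEF peaks were shared (25.5 to 61.1), an interval above the autosomal percentage. It treats overlapping MEF peaks of the locus as independent, and sharing was not recomputed with them merged. In no other locus did an interval leave out the autosomal percentage of its list.

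In Igh 9 of the 11 shared peaks of each list lay at the constant end. There 9 of 19 ES peaks (47.4%, 27.3 to 68.3) were shared, as were 9 of 11 MEF peaks (81.8%, 52.3 to 94.9). In the rest of Igh 2 of 21 ES peaks were shared (9.52%, 2.65 to 28.9), and 2 of 15 MEF peaks (13.3%, 3.74 to 37.9). The autosomal shares are 26.2% (ES) and 21.9% (MEF). The intervals of the constant end lie above them, in ES cells only just, and those of the rest include them. Overlapping peaks of the same list were counted separately and as independent. Whether the intervals would still lie above with such peaks merged was not tested. No peak above 114955000, the end of the last shared MEF peak, was shared, although most of the locus lies there. The close spacing of the constant end moved with this result. With another ES peak within 1 kb were 12 of its 19 ES peaks and none of the 21 in the rest, against 12.0% of autosomal ES peaks. On autosomes 46.7% of closely spaced ES peaks were shared and 23.4% of the others. The part that close spacing has in the sharing within Igh was not tested. Igk showed less of a contrast, with 4 of 12 ES peaks shared at the constant end (33.3%, 13.8 to 60.9) and 6 of 28 in the rest (21.4%, 10.2 to 39.5).

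Of the 9 shared ES peaks at the constant end of Igh, 7 lay in 2 groups. The first lay in a run of 10 ES peaks from 114449396 to 114461581, each under 5 kb from the next. Runs of 10 or more ES peaks by this rule, which was chosen after the values were seen, numbered 28 on all autosomes. It contained 4 MEF peaks, all of them shared. The ES peak at 114458693 to 114459091 overlapped the highest-ranked MEF peak of the locus, at 114458682 to 114459080, whose score was at or above that of 99.4% of the MEF list. This share is called the score percentile below. The ES peak itself was at percentile 85.1. The ES peak at 114460220 to 114460618 was the highest-ranked shared ES peak of Igh, at percentile 96.0, with a MEF partner at percentile 64.0. The ES peak at 114460486 to 114460884 (91.7) started 9 bp from its MEF partner (83.1). It overlapped the ES peak at 114460220 to 114460618. Their MEF partners, at 114460108 to 114460506 and 114460477 to 114460875, also overlapped each other. Nearer the locus edge, a shared peak at 114425803 to 114426201 in ES cells had percentiles of 82.5 (ES) and 96.3 (MEF).

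The second group was a run of 6 ES peaks from 114562952 to 114574527, with 3 shared and 3 MEF peaks. Its highest ES percentile was 84.0, and none of its peaks was in the highest-scoring 10% of its list. The ES peaks at 114567192 to 114567590 and 114567461 to 114567859 overlapped each other and the same MEF peak, at 114567555 to 114567953. The MEF peak at 114567795 to 114568193 also overlapped the latter ES peak. The shared counts of Igh thus include this position, like that of the overlapping peaks in the first group, more than once in each list. Farther into the locus the 2 shared positions were 114665566 to 114665964 in ES cells (percentiles 65.3 in ES and 77.0 in MEF) and 114954581 to 114954979 (69.3 and 70.9). The latter was the last shared peak of Igh, 555 kb from the low-coordinate edge.

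Igk contained the highest-ranked position of all the loci. The ES peak at 70676447 to 70676845 had a score of 823 and the MEF peak at 70676453 to 70676851 a score of 740, starting 6 bp apart. Both were at percentile 99.9 of their lists. This position lay 73.4 kb from the high-coordinate edge, at the end of the locus where the gene table places Igkc and the J segments. The next-ranked shared ES peak of Igk, at 70468432 to 70468830, was at percentile 99.3 in ES cells, but its MEF partner was at 58.4. Another ES peak, at 70468080 to 70468478, overlapped the same MEF peak, which is why Igk has 10 shared ES but 9 shared MEF peaks. In the interior, the shared peak at 68618411 to 68618809 stood alone, at percentiles 84.4 (ES) and 94.9 (MEF), with starts 5 bp apart. The first shared peak of the locus, at 67625191 to 67625589, was near the bottom of both lists, at 0.572 and 4.30.

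The 4 shared positions of Tcrb all lay within 287 kb of its low-coordinate edge, away from the constant end. They were at 40843581 to 40843979, 41005574 to 41005972, 41041135 to 41041533 and 41086966 to 41087364 in ES cells. The ES percentiles were 23.6, 29.9, 62.8 and 86.1, in that order. The MEF percentiles were 92.9, 83.1, 35.1 and 93.4. The last of them ranked highest in both lists. All 4 started within 100 bp of their partner, as did 73.5% of shared autosomal ES peaks. The ES percentiles of all 13 Tcrb peaks had a median of 37.4.

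In Tcra/Tcrd 3 of the 6 shared positions had starts within 54.2 kb of each other, at 54396386 to 54396784, 54424015 to 54424413 and 54450588 to 54450986 in ES cells. The first of them was at percentile 90.5 in ES cells and 97.5 in MEFs. With the top Igk peak, it was 1 of 2 among the 31 shared ES peaks with both partners in the highest-scoring 10%. This share, 6.45%, is near the autosomal background of 7.44% of shared ES peaks. The second had percentiles of 14.9 (ES) and 95.4 (MEF), and the third 85.1 and 74.6. The remaining shared peaks were at 53661716 to 53662114 (90.5 and 24.1), 54772484 to 54772882 (86.1 and 84.6) and 54858708 to 54859106 (43.8 and 19.2).

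**Figure D4:**
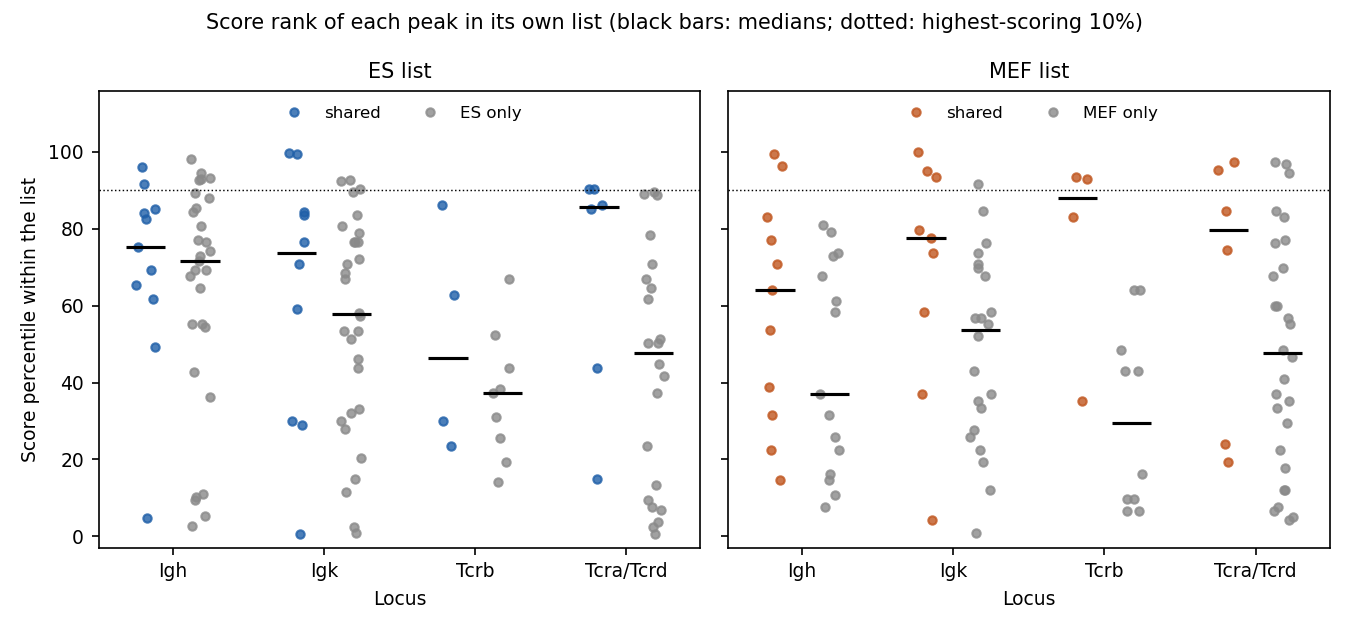
Score percentile of each peak within its own list (vertical axis, percent of the list at or below the score), by locus, for shared peaks (coloured) and peaks of 1 list only (grey); black bars are medians and the dotted line marks the highest-scoring 10%. The ES-only peaks of Igh reach percentile 98.0 and its MEF-only peaks 81.0, and the median of shared peaks lies above that of unshared peaks in each of the 4 loci and both lists.

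Peaks of these loci ranked somewhat above the middle of their lists. The median percentile was 62.8 for the ES peaks and 55.3 for the MEF peaks, against 50.3 for autosomal peaks of either list. By locus the ES medians were 72.2 in Igh, 63.1 in Igk, 37.4 in Tcrb and 50.3 in Tcra/Tcrd. The MEF medians were 56.1, 56.9, 43.0 and 52.0 in the same order. In ES cells 14 of 121 peaks were in the highest-scoring 10%, against 10.2% of autosomal ES peaks. In MEFs 13 of 105 were, against 10.4%. Both shares are near the background. Shared peaks had higher medians than unshared ones, 75.4 against 55.3 in ES cells and 75.8 against 43.0 in MEFs. On autosomes these medians were 60.1 and 47.2 (ES) and 72.0 and 46.7 (MEF). In Igh the unshared ES peaks had a median percentile of 71.5, nearly that of its shared peaks.

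Several highly ranked ES peaks of the Igh interior were far from any MEF peak. The highest-ranked ES peak of the whole locus was unshared, at 116902288 to 116902686, with a score of 221 and percentile 98.0, and the nearest MEF peak started 222 kb away. Its neighbours at 116898199 to 116898597 (92.6) and 116843158 to 116843556 (93.0) had their nearest MEF peaks 226 and 281 kb away. All 3 lay within the single 768 kb MEF gap described above. With them, 5 of the 29 ES-only peaks of Igh (17.2%) were in the highest-scoring 10%, against 6.95% of autosomal ES-only peaks, the other 2 at 115034097 to 115034495 (93.1) and 115344288 to 115344686 (94.4). None of the 15 MEF-only peaks of Igh reached the highest-scoring 10%, which is near the background of 6.00% among autosomal MEF-only peaks. The highest of them, at 116003501 to 116003899, was at percentile 81.0.

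In the other loci the highest unshared peaks lay closer to the other list. In Igk 3 of 30 ES-only peaks were in the highest-scoring 10%, near the background given above, at 70662790 to 70663188, 70673799 to 70674197 and 70718708 to 70719106, all at the constant end and 1.37 to 2.20 kb from a MEF peak. The highest-ranked MEF-only peak of Igk, at 70239260 to 70239658 (91.8), was 51.0 kb from an ES peak. In Tcra/Tcrd 3 of 28 MEF-only peaks were in the highest-scoring 10%, also near the background, at 54217008 to 54217406 (94.6), 54684180 to 54684578 (97.0) and 54847562 to 54847960 (97.3), between 2.98 and 11.1 kb from an ES peak. Its highest-ranked ES-only peak, at 53659393 to 53659791 (89.6), was 2.28 kb from a MEF peak. In Tcrb the highest-ranked ES-only and MEF-only peaks were at 41011936 to 41012334 (67.0) and 40984214 to 40984612 (64.0).

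Near misses were few among unshared peaks, in these loci as on autosomes, and the counts are small. A MEF peak started within 1 kb of 4 of the 90 ES-only peaks, against 7.23% on autosomes, and an ES peak within 1 kb of 4 of the 75 MEF-only peaks, against 5.86%. The median distance from an ES-only peak to the nearest MEF peak was 22.8 kb in Igh, 45.4 kb in Igk, 12.3 kb in Tcrb and 8.30 kb in Tcra/Tcrd, against 10.8 kb on autosomes. From a MEF-only peak to the nearest ES peak it was 23.7, 24.6, 13.2 and 9.67 kb in the same order, against 15.1 kb. Where shared, peaks of both lists lay at nearly the same bases. The median distance between starts was 47 bp over the 31 shared ES peaks, against 45 bp on autosomes. By locus it was 83 bp in Igh, 102 bp in Igk, 39.5 bp in Tcrb and 42 bp in Tcra/Tcrd.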

How the data were processed

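CTCF chromatin immunoprecipitation was sequenced from 1 ES and 1 MEF library. The authors deposited 1 peak list per library, with positions and a whole-number score that neither the labels nor the headerless files define. The score was therefore used only as a rank within its list. The submitters' processing notes name mm9. For the aligner, peak caller, threshold, input control, treatment of reads matching several places, pooling and number of reads, nothing is stated there or elsewhere (not given in the sources used here). Every peak spans 399 bp. Printed starts are the deposited starts plus 1.

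The loci, lists and measures were chosen with earlier results of these data known. Peaks were shared when they overlapped by at least 1 bp, checked with bedtools 2.31.1. Autosomal densities use chromosome 1 to 19 spans up to the last peak, and bins before the first peak were left out. Counting intervals (95%) are Poisson for densities, Wilson for percentages and Clopper-Pearson for ratios, and treat peaks as independent. Named positions were the highest-ranked shared and unshared peaks, peaks in the highest-scoring 10%, first and last shared peaks, fullest and empty bins and longest gaps. The counting was tested on simulated lists. The software was Python 3.11.15 with scipy 1.17.1, pandas 2.3.3, matplotlib 3.10.9 and numpy 2.4.6. Alternatives changed the locus edges, overlap rule, score cut, merging, bins, constant-end length and autosomal yardstick.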

Additional observations from a re-analysis of the deposited data

How the results depend on the processing

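Among the 130 values computed under alternatives, 121 lay within the counting interval of the value reported, 8 moved beyond it, and the remaining 1 passed from an interval wholly below the autosomal level to above that level. The 121 include the Igl densities, which stayed at 0 under every alternative and could not have moved, as the locus has no peak. Against the median autosomal bin in place of the mean, the ES density ratio was 1.17 in Igh, 1.14 in Tcra/Tcrd and 1.01 in Igk, where the reported value (0.688) had an interval below 1. The Tcrb ratios (1.35 ES, 1.09 MEF) and the Tcra/Tcrd MEF ratio (1.04) also passed 1, inside intervals that already included it. In the higher-scoring 50% of the lists the ES density ratio of Igh was 1.23, the percentage of Tcrb MEF peaks shared was 60.0% and their median gap 111 kb. With 500 kb at the constant end the ES ratio of Igh was 2.50 and the MEF ratio of Igk 1.04 (reported 1.89). In bins of 500 kb, 0% lacked an ES peak and 6.25% a MEF peak, and in bins counted from the first base 5.88% and 29.4%. The 500 kb changes follow from the longer stretch; the cause of the others was not tested. The autosomal span counted from the first peak was an alternative chosen after seeing the data. No paired analysis was possible because neither cell type has a replicate library. The number of reads behind the lists is not known, and a peak missing from a list need not mean absent binding.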
